A study of Mus musculus with 10 samples.

Results

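The genes described here are 9 alpha subunits of the voltage-gated sodium channels in pools of vagal sensory neurons of the mouse. They were chosen by symbol (Scn1a, Scn2a1, Scn3a, Scn4a, Scn7a, Scn8a, Scn9a, Scn10a and Scn11a) from the 24421 rows of the count tables. Neurons were picked by hand from the jugular ganglion, which derives from the neural crest, and from the nodose ganglion, which derives from the epibranchial placodes. In the Trpv1-tdTomato selection, Trpv1-tdTomato mice carried a Cre recombinase at Trpv1 and a floxed tdTomato reporter under the CAG promoter at Rosa26, so a red neuron is one that expressed Trpv1 at some time in its history. Each replicate there was a pool of 30 red nodose neurons (Trpv1+ nodose), 30 red jugular neurons (Trpv1+ jugular) or 15 nodose neurons without the red label (Trpv1- nodose), from 2 mice in all. For the capsaicin selection, neurons of C57BL/6 wild-type mice were loaded with a calcium dye and exposed to capsaicin at 1 µM and to the P2X agonist α,β-methylene-ATP at 10 µM before they were picked. The capsaicin nodose pools held 14 and 15 neurons that answered both agonists, and the capsaicin jugular pools held 15 and 16 neurons that answered capsaicin alone. Each of the 5 groups had 2 pools, no source ties a pool to its own mouse, and the ages of the mice are not given in the sources used here, so p-values measure only the spread between pools.

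The voltage-gated sodium channel alpha subunit is a single long protein of homologous domains that forms the pore and senses the voltage. Which alpha subunits a sensory neuron makes sets its threshold, the upstroke of its action potential and its sensitivity to tetrodotoxin, the pufferfish toxin that plugs the outer mouth of the pore. Vagal C-fiber neurons are known for a large tetrodotoxin-resistant sodium current beside the tetrodotoxin-sensitive current, and both kinds of channel have been studied as targets for cough and visceral pain.

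The residue in the pore loop of domain I that separates the channels by tetrodotoxin sensitivity was read for 8 of the genes, because the account of the levels is ordered by it. Each line gives 39 coding bases from the GENCODE vM21 transcript (GRCm38, the assembly named mm10), 5′ to 3′ on the coding strand and within 1 coding exon, with the codon of that residue in capitals.
Scn9a: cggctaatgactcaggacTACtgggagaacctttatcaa
Scn8a: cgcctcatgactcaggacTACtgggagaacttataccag
Scn3a: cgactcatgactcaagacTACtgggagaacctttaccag
Scn4a: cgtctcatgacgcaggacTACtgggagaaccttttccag
Scn2a1: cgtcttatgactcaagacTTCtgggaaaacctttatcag
Scn10a: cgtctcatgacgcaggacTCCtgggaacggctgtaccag
Scn11a: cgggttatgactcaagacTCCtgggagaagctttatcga
Scn7a: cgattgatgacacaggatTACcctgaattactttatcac
The codon stands for an aromatic residue in the tetrodotoxin-sensitive channels, tyrosine in Scn9a, Scn8a, Scn3a and Scn4a and phenylalanine in Scn2a1. It stands for serine in Scn10a and Scn11a, which are tetrodotoxin-resistant. Scn7a also has tyrosine there, but the tryptophan codon that follows in the other 7 sequences is a proline codon in Scn7a, the sodium sensor Nax that does not open with voltage like the rest of the family. The windows lie at chr2:66548983-66549021 (Scn9a, minus strand), chr15:100971620-100971658 (Scn8a, plus), chr2:65521795-65521833 (Scn3a, minus), chr11:106343895-106343933 (Scn4a, minus), chr2:65688418-65688456 (Scn2a1, plus), chr9:119666369-119666407 (Scn10a, minus), chr9:119805662-119805700 (Scn11a, minus) and chr2:66726157-66726195 (Scn7a, minus).

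Scn3a, Scn2a1, Scn1a, Scn9a and Scn7a follow each other on chromosome 2 between 65457118 (the start of Scn3a) and 66784914 (the end of Scn7a), and only Scn2a1, which GENCODE calls Scn2a, is on the plus strand. The tetrodotoxin-resistant genes Scn10a and Scn11a lie side by side on the minus strand of chromosome 9 between 119608456 and 119825456. Scn4a stands alone at chr11:106318592-106353288 and Scn8a at chr15:100869858-101045938. Transcripts of other genes on the opposite strand overlap Scn1a (Gm13630), Scn3a (Gm13595) and Scn9a (Gm13629), and Scn9a also overlaps a processed pseudogene on its own strand (Gm13627). Whether reads were counted by strand is not given in the sources used here, so for these 3 genes a read from the partner cannot be told from a read of the channel.

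The pools differed in depth with the selection. The total count was 148452506 to 167704327 in the Trpv1-tdTomato selection and 17666710 to 30810863 in the capsaicin selection, so that 3 counts, taken as the smallest value told from 0, correspond to at most 0.0154 counts-per-million units (CPM) in the first and to 0.118 to 0.175 CPM in the second. The selection goes with the mouse strain, the sequencing core and the depth, and these cannot be told apart. All 6 sensory neuron markers had over 3 counts in every pool, although Rbfox3 had only 12 counts (0.702 CPM) in the second capsaicin nodose pool. The placodal markers P2rx2 and Hoxb5 summed to 295 to 958 CPM in the nodose pools and to at most 0.432 CPM in the jugular pools, and the 3 crest markers (Prdm12, Tac1, Gfra3) to 332 to 1304 CPM in the jugular pools and at most 1.25 CPM in the nodose pools. The study reported Hoxb5 and Prdm12 as differing between the ganglia from these same pools. Capsaicin nodose neurons were also picked by their answer to a P2X agonist, so these sums are not an independent check. Trpv1 itself was at 118 and 202 CPM in Trpv1+ nodose, at 17.8 and 25.8 CPM in Trpv1+ jugular, at 0.0348 and 0.0334 CPM in Trpv1- nodose and at 70.6 to 248 CPM in the 4 capsaicin pools. Satellite glia markers summed to 2285 to 3404 CPM in the Trpv1-tdTomato selection against 209 to 725 CPM in the capsaicin selection. In pools of cells, a level set by fewer cells that express a gene and one set by less RNA per cell cannot be told apart.

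Scn9a, Scn10a, Scn11a and Scn7a, 4 of the 9 genes, were abundant in the pools, and Scn9a, Scn10a and Scn7a exceeded 10 CPM in each of the 10 pools. The other 5 were present in some groups or single pools and near 0 elsewhere. A difference between groups was called where edgeR's adjusted p was 0.1 or less, the groups differed 2-fold or more and both pools of either group reached 10 CPM, scaled over the pools of that comparison alone. The CPM printed here are scaled over all 10 pools, so a gene near 10 CPM, such as Scn3a, can pass in a comparison and not in another. By this rule edgeR called 0 of the 9 in each of the 5 fits, where it called 0% to 0.577% of all genes, and the values are therefore given pool by pool, first replicate first.

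**Figure D1:**
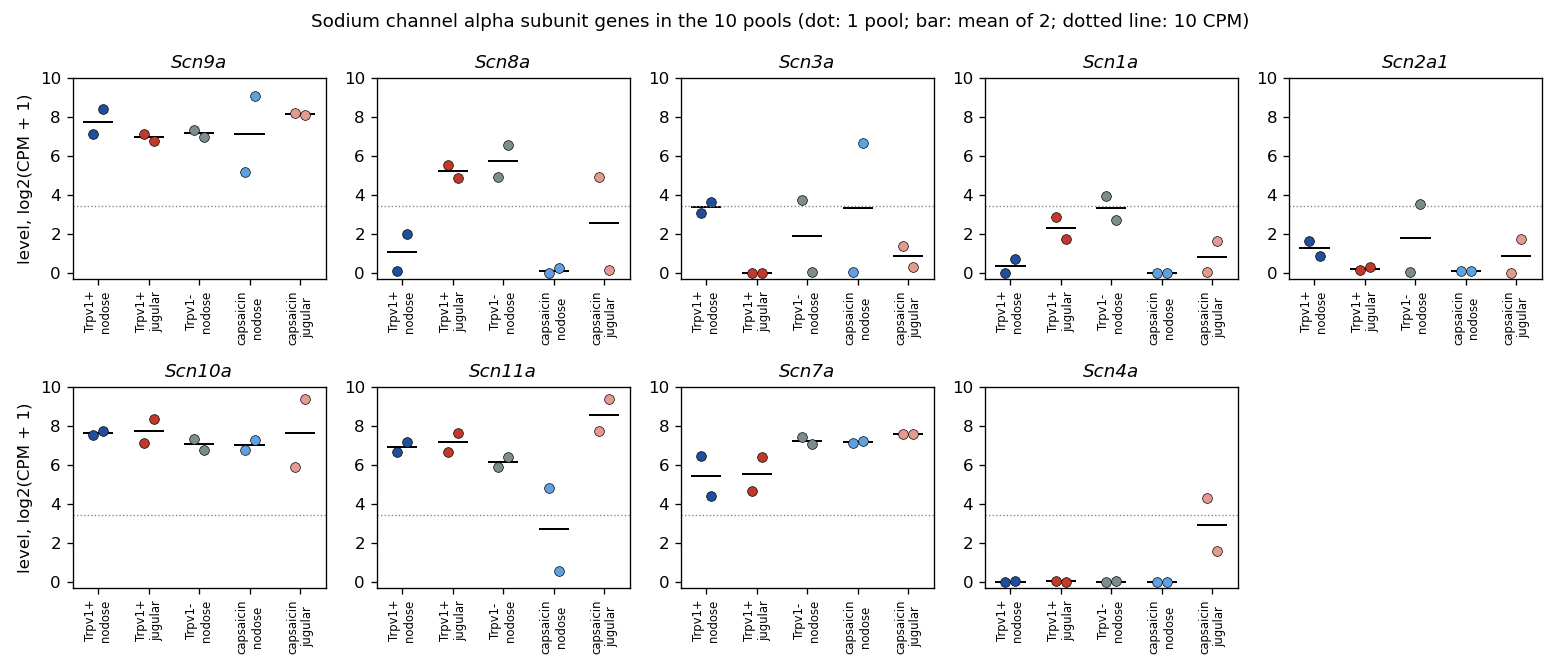
Level of each alpha subunit gene, as log2(CPM + 1), in the 5 groups; each dot is a pool, the bar is the mean of the log2 values of both pools, and the dotted line marks 10 CPM. Scn9a, Scn10a and Scn7a lie above the line in each of the 10 pools, and in several groups the pools of Scn3a, Scn8a, Scn2a1 and Scn4a lie far apart.

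Scn9a (Nav1.7), the tetrodotoxin-sensitive channel that amplifies small depolarizations in nociceptors, was measured in every pool. Its level was 139 and 333 CPM in Trpv1+ nodose, 141 and 109 CPM in Trpv1+ jugular, 162 and 124 CPM in Trpv1- nodose, 35.3 and 535 CPM in capsaicin nodose, and 294 and 273 CPM in capsaicin jugular. In order of the group means, capsaicin nodose (285 ± 354 CPM, SD, n = 2) stood above capsaicin jugular (284 ± 14.6), Trpv1+ nodose (236 ± 138), Trpv1- nodose (143 ± 27.0) and Trpv1+ jugular (125 ± 22.6), and each group overlapped the next. The log2 fold change of nodose over jugular was 0.91 (SE 0.54, edgeR adjusted p = 0.679) in the Trpv1-tdTomato selection and -0.49 (SE 1.17, adjusted p = 0.9999) in the capsaicin selection. Between Trpv1+ and Trpv1- nodose it was 0.75 (SE 0.53, adjusted p = 0.769), and the pools of these groups overlapped.

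Scn8a (Nav1.6), the tetrodotoxin-sensitive channel of nodes of Ranvier and axon initial segments, was low in nodose neurons that express Trpv1 and present in the other groups of the Trpv1-tdTomato selection. It stood at 0.0669 and 3.03 CPM (13 and 618 counts) in Trpv1+ nodose, at 46.1 and 28.4 CPM in Trpv1+ jugular and at 29.3 and 94.0 CPM in Trpv1- nodose, so both latter groups lay wholly above the first. In the capsaicin selection it was at 0 and 0.175 CPM (0 and 3 counts) in nodose, and at 29.0 and 0.125 CPM (739 and 3 counts) in jugular, where a single pool carried it. The edgeR log2 fold change was -4.58 (SE 2.35, adjusted p = 0.589) for Trpv1+ nodose over Trpv1+ jugular and -5.25 (SE 2.19, adjusted p = 0.480) for Trpv1+ over Trpv1- nodose, and neither passed the test. Without the second Trpv1+ nodose pool these became -9.13 and -9.78 (adjusted p = 0.536 and 0.514). DESeq2 called the second of these (log2 fold change -5.18, adjusted p = 0.0778) and not the first.

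Scn3a (Nav1.3), a tetrodotoxin-sensitive channel of embryonic and injured neurons, was carried by both pools of Trpv1+ nodose. In each other nodose group it was carried almost wholly by a single pool. Its level was 7.37 and 11.7 CPM (1432 and 2379 counts) in Trpv1+ nodose against 0.00431 and 0.00404 CPM (1 count each) in Trpv1+ jugular. The ratio of the summed counts (3811 against 2), each over the summed size factors of its group, was 2296 with a 95% interval of 635 to 18960, which covers counting error only and rests on 1 count a pool in jugular. The edgeR log2 fold change was 10.97 (SE 2.95, adjusted p = 0.321). DESeq2 gave 11.19 with an adjusted p of 9.91e-08, but a pool under 10 CPM kept Scn3a from a call there. Scn3a was uneven between pools of the other nodose groups, at 12.6 and 0.0250 CPM (3268 and 6 counts) in Trpv1- nodose and at 0.0417 and 99.1 CPM (1 and 1693 counts) in capsaicin nodose. Capsaicin jugular had 1.61 and 0.250 CPM, and the fold changes between capsaicin groups (log2 5.24, SE 3.78, adjusted p = 0.818) and between Trpv1+ and Trpv1- nodose (log2 0.58, SE 2.67, adjusted p = 0.995) did not pass edgeR's test.

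Scn1a (Nav1.1), a tetrodotoxin-sensitive channel known from myelinated sensory neurons, was at 14.2 and 5.68 CPM in Trpv1- nodose and at 6.31 and 2.40 CPM in Trpv1+ jugular. It was at 0 and 0.672 CPM (0 and 137 counts) in Trpv1+ nodose, at 0 counts in both capsaicin nodose pools, and at 0.0392 and 2.09 CPM (1 and 50 counts) in capsaicin jugular. Both pools of Trpv1- nodose and of Trpv1+ jugular thus lay above the pools of the 3 remaining groups. The log2 fold change was -3.69 (SE 3.18, adjusted p = 0.825) for Trpv1+ nodose over Trpv1+ jugular and -4.86 (SE 3.36, adjusted p = 0.766) for Trpv1+ over Trpv1- nodose by edgeR. Without the second Trpv1+ nodose pool, which leaves the first at 0 counts, these became -12.94 and -14.17 (adjusted p = 0.536 and 0.517) and depend on the prior count. Scn2a1 (Nav1.2), the tetrodotoxin-sensitive channel of central neurons, exceeded 10 CPM in a single pool, the second of Trpv1- nodose (10.5 CPM, 2507 counts), whose partner had 0.0271 CPM (7 counts). It was at 2.12 and 0.848 CPM in Trpv1+ nodose, above the 0.0990 and 0.226 CPM of Trpv1+ jugular (log2 fold change 3.17, SE 1.83, edgeR adjusted p = 0.660).

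Scn10a (Nav1.8), the tetrodotoxin-resistant channel that carries most of the upstroke of the nociceptor action potential, was found in every pool. It stood at 184 and 213 CPM in Trpv1+ nodose, 138 and 331 CPM in Trpv1+ jugular, 163 and 108 CPM in Trpv1- nodose, 109 and 153 CPM in capsaicin nodose, and 59.6 and 657 CPM in capsaicin jugular. Both Trpv1+ nodose pools lay above both Trpv1- pools (log2 fold change 0.57, SE 0.40, edgeR adjusted p = 0.766), but by plain totals these groups overlapped. Nodose and jugular pools overlapped in both selections, with log2 fold changes of -0.25 (SE 0.50, adjusted p = 0.957) in the Trpv1-tdTomato selection and -1.88 (SE 1.21, adjusted p = 0.733) in the capsaicin selection. The sign of both turned when 1 pool was left out: without the second Trpv1+ jugular pool the first became 0.51, and without the second capsaicin jugular pool the other became 0.82.

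Scn11a (Nav1.9), the tetrodotoxin-resistant channel whose persistent current sits near the resting potential, did not overlap between the capsaicin groups. It was at 27.6 and 0.468 CPM (663 and 8 counts) in capsaicin nodose and at 213 and 672 CPM in capsaicin jugular, the lowest and the highest group means of the 5 (14.1 ± 19.2 and 442 ± 325 CPM, SD, n = 2). The log2 fold change of nodose over jugular was -5.20 (SE 2.05) and did not pass after adjustment by edgeR (adjusted p = 0.355). It was called without the filter on low counts (-5.17, edgeR adjusted p = 0.00922), where the share of all genes called was not counted. Without the first capsaicin nodose pool the log2 fold change became -10.40. In the Trpv1-tdTomato selection it stood at 99.6 and 144 CPM in Trpv1+ nodose and 101 and 198 CPM in Trpv1+ jugular, which overlapped (log2 fold change -0.30, SE 0.54, adjusted p = 0.945). Trpv1- nodose had 57.9 and 82.7 CPM, below both Trpv1+ nodose pools (log2 fold change of Trpv1+ over Trpv1- 0.83, SE 0.52, adjusted p = 0.718). By plain totals the pools of these groups overlapped.

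Scn7a (Nax), the sodium sensor of the family that is known from both sensory neurons and glia, was at 173 and 132 CPM in Trpv1- nodose, 137 and 151 CPM in capsaicin nodose and 193 and 195 CPM in capsaicin jugular. It was at 86.1 and 19.9 CPM in Trpv1+ nodose and at 24.0 and 83.3 CPM in Trpv1+ jugular, so all 4 Trpv1+ pools lay below the 6 others on this scale. By plain totals they did not. The first Trpv1+ nodose pool (108 CPM) and the second Trpv1+ jugular pool (123 CPM) then lay above the second capsaicin nodose pool (83.6 CPM). Trpv1+ and Trpv1- nodose differed by a log2 fold change of -1.51 (SE 0.80, edgeR adjusted p = 0.641), and nodose and jugular by -0.04 (SE 1.13, adjusted p = 0.999) in the Trpv1-tdTomato selection and -0.78 (SE 0.74, adjusted p = 0.951) in the capsaicin selection. The 5 satellite glia markers summed to 3179 and 3124 CPM in Trpv1+ nodose and to 2791 and 2470 CPM in Trpv1- nodose, and the 5 Schwann cell markers to 166 and 282 CPM and to 264 and 215 CPM. In the capsaicin selection the satellite glia sum was lower (209 to 725 CPM) and the Schwann cell sum higher (914 to 1399 CPM, mostly Pmp22), and their part in the level of Scn7a was not tested.

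Scn4a (Nav1.4), the tetrodotoxin-sensitive channel of skeletal muscle, was at 18.6 and 2.04 CPM (473 and 49 counts) in capsaicin jugular and at 0 counts in both capsaicin nodose pools. Against a floor of 3 counts per pool, the mean of the capsaicin jugular pools (10.3 CPM) was at least 58.7-fold higher, and edgeR gave an adjusted p of 0.352. That mean rests mostly on the first pool, so the bound is not met by each pool. In the 6 pools of the Trpv1-tdTomato selection it had at most 12 counts (0.0517 CPM). All 7 muscle markers were at 0 in both capsaicin jugular pools. They summed to 0.0417 and 63.95 CPM in capsaicin nodose and to 40.45 and 30.69 CPM in Trpv1+ nodose. In Trpv1- nodose the sums were 4.37 and 12.94 CPM, and in Trpv1+ jugular 3.59 and 0.0283 CPM. A part of muscle RNA in the level of Scn4a was not tested.

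The members were first read together for nodose against jugular neurons in the Trpv1-tdTomato selection, the comparison that asks how the ganglia differ. Of the 9 genes, 8 passed the count filter and 5 had at least 10 CPM in both pools of a group, and edgeR called 0, where 0.318% of the 10990 genes tested were called. At an unadjusted p under 0.05 edgeR gave 1 of the 8, Scn3a, beside 11.9% of all tested genes, and DESeq2 called 0, against 3.84% of its genes. The pools of the groups did not overlap for 4 of the 8 tested (Scn1a, Scn2a1, Scn3a and Scn8a), beside 42.1% of all tested genes. The median log2 fold change of the 8 tested members was -0.14, beside 0.03 over all genes tested.

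For nodose against jugular neurons in the capsaicin selection, 6 of the 9 were tested, and edgeR called 0 of them, as it called 0% of all 8181 genes. Unadjusted p fell under 0.05 for 2 of the 6, Scn11a and Scn4a, beside 14.1% of all tested genes, and DESeq2 called 0 of the 9, against 6.58% of its genes. The groups did not overlap for 3 of the 6 tested (Scn4a, Scn7a and Scn11a), beside 42.1% of the tested genes, nor for Scn1a, which was not tested. The median log2 fold change of the tested members was -1.33, with -0.02 over all genes, and is the same with Scn4a at its bound; 1 of the 6, Scn3a, had a value above 0. Without the second capsaicin nodose pool that value became -4.45.

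For Trpv1+ against Trpv1- nodose neurons, which share the Trpv1+ nodose pools with the first comparison, 8 of the 9 were tested, and edgeR called 0 where it called 0.0527% of 11386 genes. Unadjusted p fell under 0.05 for 0 of them, beside 11.1% of all tested genes, and DESeq2 called 1, Scn8a, lower in Trpv1+ nodose, against 2.76% of its genes in either direction and 2.12% lower. The groups did not overlap for 5 of the 8 tested (Scn1a, Scn7a and Scn8a lower and Scn10a and Scn11a higher in Trpv1+ nodose), beside 40.7% of the tested genes. By plain totals Scn10a (232 and 283 CPM against 266 and 175 CPM in Trpv1- nodose) overlapped. So did Scn11a (125 and 192 CPM against 94.8 and 133.5 CPM). The median log2 fold change of the tested members was -0.47, with 0.01 over all genes. With 2 pools on each side, exact permutation can reach no p under 0.33 and was not run for single genes.

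**Figure D2:**
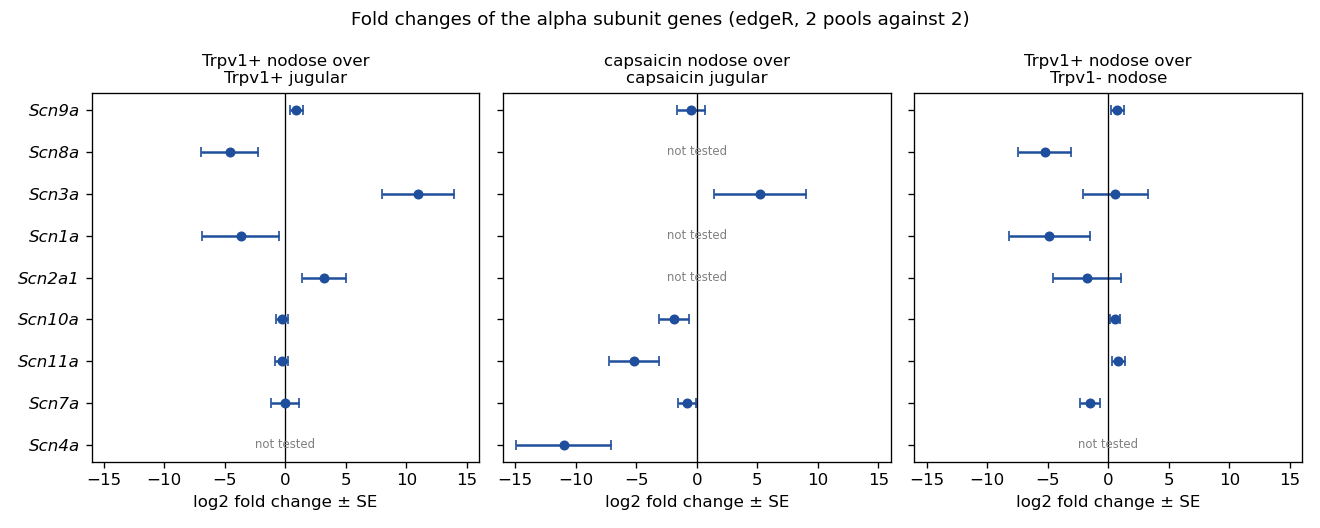
Log2 fold change of each alpha subunit gene with its standard error from edgeR's quasi-likelihood test, in the 3 comparisons of 2 pools against 2; genes that did not pass the count filter are marked as not tested. The value furthest above 0 is that of Scn3a (10.97) for Trpv1+ nodose over Trpv1+ jugular and the value furthest below 0 is that of Scn4a (-10.99) for capsaicin nodose over jugular, and no gene passed the adjusted threshold. Both capsaicin nodose pools had 0 counts of Scn4a, so the size of its value depends on the prior count. Against a floor of 3 counts per pool, the mean of capsaicin jugular was at least 58.7-fold higher.

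With both selections in a single fit of 8 pools, and the selection as a covariate, edgeR called 0 of the 9 genes and 0.577% of 11959 genes. Unadjusted p fell under 0.05 for 2 of the 9, beside 11.1% of all tested genes. Scn8a was lower in nodose (log2 fold change -6.12, SE 2.74, edgeR adjusted p = 0.444, and -3.42 with adjusted p = 0.780 without the first capsaicin jugular pool), and Scn3a was higher (8.0, SE 3.27, adjusted p = 0.388). DESeq2 called 1, Scn8a (log2 fold change -5.93, adjusted p = 0.00766), against 8.13% of its genes in either direction and 5.52% lower in nodose. The interaction of ganglion and selection, which tests whether the nodose to jugular difference itself differed between selections, gave 0 calls among the 9 and 0% of all genes by edgeR. Its smallest unadjusted p among the members was that of Scn11a (log2 -4.97, SE 2.03, edgeR adjusted p = 0.478), the only member under 0.05, beside 10.3% of all genes tested, and DESeq2 called 0 of the 9, against 8% of its genes.

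Levels of different genes were set side by side per length, as CPM per kilobase of annotated exon, and each gene was expressed as its percent of the sum over the 9 genes. Scn10a and Scn11a, the tetrodotoxin-resistant genes among them, made up 63.1% and 63.0% of the summed level in Trpv1+ nodose, 65.8% and 77.4% in Trpv1+ jugular, and 42.8% and 44.1% in Trpv1- nodose. All 4 Trpv1+ pools of the Trpv1-tdTomato selection were thus above both Trpv1- pools, although with 2 pools a group no test was made. With Scn7a left out of the sum, an alternative chosen after seeing the data, the share was 77.4% and 65.2% in Trpv1+ nodose, 70.2% and 87.6% in Trpv1+ jugular and 64.2% and 61.9% in Trpv1- nodose, so the gap between Trpv1+ and Trpv1- nodose was smaller. In the capsaicin selection the share was 46.0% and 21.4% in nodose and 44.6% and 80.1% in jugular, a range within groups as wide as that between them.

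Of the other genes, Scn7a held 33.4% and 28.8% of the level per length in Trpv1- nodose against 18.5% and 3.35% in Trpv1+ nodose. Scn8a held 2.63% and 9.54% in Trpv1- nodose and at most 0.237% in Trpv1+ nodose. Scn9a took 17.2% and 32.1% in Trpv1+ nodose and 18.0% and 15.5% in Trpv1- nodose, which overlapped. In the second capsaicin nodose pool Scn9a (46.8%) and Scn3a (8.87%) stood where Scn11a (0.0880%) was nearly missing, while in the first capsaicin nodose pool Scn7a (47.0%) and Scn10a (34.3%) made up most of the level. The summed level itself was 52.1 to 97.0 CPM per kilobase in the Trpv1-tdTomato selection and 39.8 to 244 CPM per kilobase in the capsaicin selection.

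**Figure D3:**
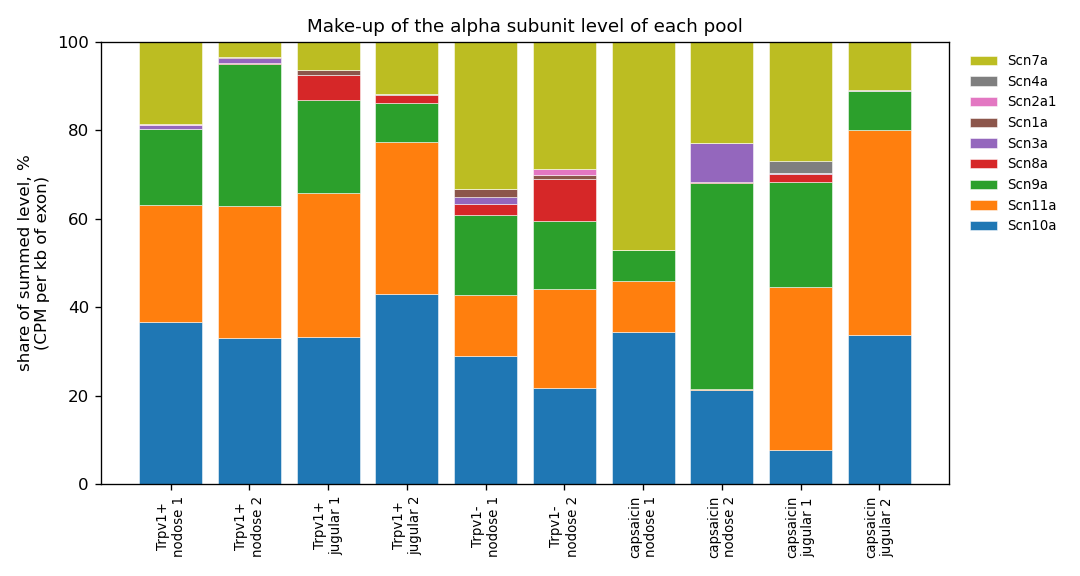
Make-up of the alpha subunit level in each of the 10 pools, as the percent of the summed CPM per kilobase of exon held by each gene; each bar is a pool and adds to 100 percent. Scn10a and Scn11a together fill 63.0% to 77.4% of the bars of the 4 Trpv1+ pools and 42.8% to 44.1% of the bars of the Trpv1- nodose pools. They fill 46.0% and 21.4% of the bars of the capsaicin nodose pools and 44.6% and 80.1% of those of the capsaicin jugular pools.

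Sodium channel alpha subunits work with partners: beta subunits, fibroblast growth factor homologous factors that bind the intracellular tail, and the ankyrin and spectrin scaffold. The list read here held 18 genes (Scn2b, Scn3b, Scn4b, Fgf11, Fgf12, Fgf13, Fgf14, Ank2, Ank3, Sptbn4, Nfasc, Nrcam, Cntn1, Nedd4l, S100a10, Dpysl2, Pdzd2 and Nalcn), and not all of them belong to these classes. Of the list, edgeR called 0 of 17 tested for nodose against jugular in the Trpv1-tdTomato selection, 0 of 13 in the capsaicin selection and 0 of 18 for Trpv1+ against Trpv1- nodose. Unadjusted p was under 0.05 by edgeR for 2, 2 and 5 of them, beside 11.9%, 14.1% and 11.1% of all tested genes. In these comparisons DESeq2 called 3 (Cntn1, Scn4b and Sptbn4), 1 (Fgf14) and 3 (Cntn1, Fgf14 and Sptbn4), beside 3.84%, 6.58% and 2.76% of its genes. In the fit of both selections DESeq2 called Cntn1, Fgf14, Nrcam, Scn3b and Scn4b, beside 8.13% of its genes, and in the interaction Cntn1 and Fgf14, beside 8%. Among the beta subunits, Scn4b, the partner linked to resurgent current, was at 82.6 and 62.7 CPM in Trpv1+ jugular and 3.58 and 0.0245 CPM in Trpv1+ nodose (log2 fold change of nodose over jugular -5.35, SE 2.35, edgeR adjusted p = 0.488). In the capsaicin selection Scn4b was nearly absent from both ganglia and was not tested by edgeR. It had 2.04 and 0 CPM (52 and 0 counts) in capsaicin jugular and 0 counts in both capsaicin nodose pools. Scn2b was at 4.08 to 68.3 CPM in the 6 pools of the Trpv1-tdTomato selection and at 744 to 7255 CPM in the 4 capsaicin pools. Scn3b was at 35.8 and 64.4 CPM in Trpv1+ nodose, 16.1 and 12.7 CPM in Trpv1+ jugular, 367 and 202 CPM in capsaicin nodose and 43.5 and 43.0 CPM in capsaicin jugular. Its log2 fold change of nodose over jugular in the fit of both selections was 2.14 (SE 0.75, adjusted p = 0.351) by edgeR and 2.28 (adjusted p = 0.00208) by DESeq2.

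Fgf14, a homologous factor that tunes channel inactivation, was the single partner called by edgeR, in the fit of both selections (log2 fold change of nodose over jugular 9.34, SE 1.83, adjusted p = 0.0781). It stood at 80.7 and 559 CPM in capsaicin nodose and at 0.157 and 0.125 CPM (4 and 3 counts) in capsaicin jugular. In the Trpv1-tdTomato selection it had 0 and 1 count in Trpv1+ nodose and 0 counts in both Trpv1+ jugular pools, so the counts behind the call are those of the capsaicin selection. Trpv1- nodose had 16.1 and 17.8 CPM (4169 and 4277 counts). The call was lost without the second Trpv1+ nodose pool (adjusted p = 0.199), the second capsaicin nodose pool (0.635), or the first (0.298) or the second (0.391) capsaicin jugular pool, by edgeR.

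The genes whose profile was most like that of a member were found by Pearson's r of log2(CPM + 1) over the 10 pools, among 7552 genes with a mean of at least 10 CPM, for the 5 members that had at least 10 CPM in both pools of a group on the printed scale. Nearest to Scn10a were Itgb6 (r = 0.82), Aco1 (0.79) and Cadm2 (0.79), and nearest to Scn11a were Bet1l (0.96), Eif4g3 (0.95) and Cmpk1 (0.95). Nearest to Scn8a were Anapc7 (r = 0.99), Abca3 (0.96) and Pstk (0.96), nearest to Scn9a were Cdk4 (0.95), Pgbd5 (0.93) and Ntmt1 (0.92), and nearest to Scn7a were Plekha1 (0.96), Naa25 (0.93) and Ttll5 (0.91). These are the highest of many values over points that share their selection, depth and library, and are given as a description. Between members, Scn10a and Scn11a had r = 0.36, and Scn11a and Scn3a had r = -0.67.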

How the data were processed

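RNA of hand-picked neurons was amplified with the SMARTer Ultra Low Input kit and sequenced as paired ends. The authors aligned reads to mm10 with TopHat2 2.0.9 and Bowtie2 2.1.0.0 and counted them with HTSeq, and the deposited values are raw counts per gene symbol. The gene annotation is not given in the sources used here. In the files 27 rows have symbols turned into month-like words by a spreadsheet, none of them a gene named here. Amplified reads without molecular identifiers are not independent molecules, so counting intervals and floors cover counting error only. Groups and replicate numbers came from the sample titles, and cells per pool from the study's methods.

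Printed CPM are counts over DESeq2 1.42.0 size factors of the 10 pools, scaled by the geometric mean total. Comparisons used edgeR 4.0.16 in R 4.3.3 (TMM, filterByExpr, quasi-likelihood test, Benjamini-Hochberg over all genes tested) on the pools compared. The study's thresholds for DESeq2 were kept: adjusted p no more than 0.1, fold no less than 2, and 10 CPM or more in each pool of either group. The SE is the size of the log2 fold change over the square root of F. The scripts were tested on simulated data. DESeq2, other scalings, no filter on low counts, a replicate block and leaving out each pool were tried as alternatives. Lengths and sequences are from GENCODE vM21, and Python 3.11.15 was used to join them. A further row that the symbol rule matches and some genes of the lists are not reported here. The other members were named, with the beta subunits, partners that were called, and the 3 genes of highest r for each member that reached 10 CPM in both pools of a group. The members and gene lists were chosen with earlier results of these data known.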

Additional observations from a re-analysis of the deposited data

How the results depend on the processing

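Among the alternative counts of called members, 56 equalled the main count of 0 and 10 did not. DESeq2 called 1 member, Scn8a, for Trpv1+ against Trpv1- nodose and 1, again Scn8a, in the fit of both selections, where edgeR called 0. Without the filter on low counts edgeR called 1, Scn11a, in the capsaicin selection (log2 fold change -5.17, adjusted p = 0.00922) and 1, again Scn11a, in the interaction (-4.93, adjusted p = 0.0570). Leaving out each pool gave 0 to 1 calls in the interaction, the 1 being Scn11a without the first capsaicin nodose pool (-10.18, edgeR adjusted p = 0.0363). DESeq2 with no CPM minimum, chosen after seeing the data, called 1 member for nodose against jugular in the Trpv1-tdTomato selection (Scn3a, adjusted p = 9.91e-08), 2 in the capsaicin selection (Scn4a and Scn8a), 1 for Trpv1+ against Trpv1- nodose (Scn8a), 3 in the fit of both selections (Scn1a, Scn3a and Scn8a) and 1 in the interaction (Scn2a1). The share of all genes called was not counted without the filter on low counts, without 1 pool or with no CPM minimum. Calls under these settings thus have no share of all genes to be read against. The causes were not tested.

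Directions turned in 12 alternative fold changes, all of results that were not called, 326 kept direction and side of the threshold, 11 of members kept direction and were newly called, under the settings named above, and 5 of Fgf14 lost its call. With DESeq2's size factors in edgeR, Scn7a became 0.0103 in Trpv1+ nodose over jugular. Leaving out each pool gave, in that comparison, -1.43 to 1.12 for Scn7a, -0.76 to 0.51 for Scn10a and -0.72 to 0.26 for Scn11a. In the capsaicin selection it gave -3.19 to 0.40 for Scn9a, -4.45 to 7.06 for Scn3a and -2.73 to 0.82 for Scn10a. For Trpv1+ over Trpv1- nodose it gave -0.0131 to 1.27 for Scn9a, -2.76 to 5.72 for Scn2a1 and -0.42 to 8.61 for Scn3a.

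Whether same-numbered pools came from the same mouse is not given in the sources used here. Their deviations from the group means had r = 0.00393 in Trpv1+ nodose and jugular, -0.00711 in the capsaicin selection and -0.00744 in Trpv1+ and Trpv1- nodose. With so few pools these values cannot tell whether a mouse was shared. With the replicate block edgeR called 0 members in all 5 fits, Scn2a1 turned to 1.31 for Trpv1+ over Trpv1- nodose, and the call of Fgf14 was lost (adjusted p = 0.167).

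The tetrodotoxin-resistant share had a mean of 63.0% in Trpv1+ nodose, 71.6% in Trpv1+ jugular and 43.4% in Trpv1- nodose. Per longest transcript the first became 60.9%, and with no length correction the 3 became 52.0%, 61.3% and 35.2%, in the same order. With Scn7a left out of the sum, chosen after seeing the data, the means became 71.3% in Trpv1+ nodose, 63.0% in Trpv1- nodose and, from 33.7%, 57.3% in capsaicin nodose. Under TMM or plain totals, 65 levels moved by less than 1 SD and 25 by more. Depth limits the capsaicin selection more, where 3 counts are 0.118 to 0.175 CPM against at most 0.0154 CPM in the Trpv1-tdTomato selection.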
